A study of Mus musculus with 16 samples.

Results

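Whether the response of the mouse liver to cadmium (Cd) depended on selenium (Se) in the diet was examined as the interaction of both treatments, in RNA-seq of 16 livers in a 2 by 2 design. The interaction was the Cd effect on the Se diet, Cd+Se minus Se, minus the Cd effect on the unsupplemented diet, Cd minus control, on log2(TPM + 1), where TPM is the relative abundance of a transcript, scaled to a common total in each library. A positive value means that a gene stood higher after Cd on the Se diet than the unsupplemented response would give, and a negative value the opposite. All 10249 protein-coding genes with a gene name and a mean of at least 1 TPM were considered, out of 11766 genes tested and 57010 in the table, and 103 of them (1%) passed an adjusted p of 0.05 in limma.

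All mice were male wild-type C57BL/6J mice, with 4 in each group. Their age is given as 8 to 12 weeks, and the study's scheme has mice of 8 weeks put on the 3-month diet. Livers were taken when treatment ended. The control group received neither treatment. The Cd group received daily intraperitoneal CdCl2 at 1.25 mg/kg over 7 days, the Se group ate food with selenomethionine at 2 ppm for 3 months, and the Cd+Se group received both, with Cd in the final days of the diet. Whether mice without Cd received a vehicle injection, and the Se content of the unsupplemented diet, were not given in the sources used here. The labels give each mouse a number, used below, and separate animals are taken from those numbers.

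Cd is a metal with no known role in mammalian cells that the liver takes up, binds with metallothioneins and retains. Se acts through selenoproteins, which carry selenocysteine and include glutathione peroxidases, thioredoxin reductases and proteins of the endoplasmic reticulum, and the liver secretes Selenop, which carries Se to other organs. Selenomethionine enters the body as an amino acid and supplies Se to this pathway when it is broken down.

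The 16 libraries held 10917 to 12064 genes at 1 TPM or more. Their read depth is unknown because TPM keeps none, and 4 mice a group limit the precision. Cd mouse 5 stood apart, with the lowest median log2 level (2.68, against 2.90 to 3.36 in the other mice) and 22.24% of TPM on mitochondrially encoded genes (12.85% to 18.04% in the other mice). The Cd group as a whole differed in the pseudogene share of its libraries, 10.72% to 13.91% against 8.535% to 10.39% in the other groups. Hepatocyte markers were high in every library, with 7 markers summing to 40880 to 114500 TPM. The median interaction of all genes tested was 0.16 on the log2 scale, which became 0.01 with quantile normalization and −0.03 when the libraries were centred on their medians. In bulk liver, fewer cells of a type and less RNA per cell cannot be told apart.

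Of the 103 genes, 98 had a positive and 5 a negative interaction, and the commonest pattern was a fall after Cd on the unsupplemented diet that was not called on the Se diet. This held for 95 genes, among them A1cf, Apoa5, Rxra, Met and Il6st, where 24.9% of all genes fell on the unsupplemented diet and 0.714% were called on the Se diet, 0.17% as lower. All 5 genes with a negative interaction, Selenok, Ccdc152, Ddc, Pdgfrl and H4c17, rose after Cd on the unsupplemented diet (5.82% of all genes) and were not called on the Se diet. Laptm5 and Slc43a2 were called on neither diet. Lyve1 was the only member called on the Se diet, where it rose (0.544% of all genes). Because the pattern takes part in the same contrast that chose the genes, it describes them and is no further test.

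Over all 11766 genes, 122 (1.04%) were called, 106 higher (0.901%) and 16 lower (0.136%). The calls outside the 103 were 8 long noncoding RNAs, 8 pseudogenes and 3 protein-coding genes without a gene name. Negative calls made up 13.1% of all 122. Centring the libraries called 731 genes with 56.9% negative, and quantile normalization 524 with 37.4% negative. Of the 103 genes, 98 were called after centring and 101 after quantile normalization. The direction of each of the 103 was the same under both.

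The number of calls depended strongly on single mice. Of the 10249 named protein-coding genes, limma called 0 without control mouse 29 (1863 at an unadjusted p under 0.05) and 1 without Cd+Se mouse 14. It called 10 without control mouse 28, 15 without control mouse 27 and 41 without control mouse 30, then 11, 25 and 22 without Se mice 39, 41 and 44. Without Cd mice 2 and 6 and Cd+Se mouse 16, 30, 55 and 62 were called, and without Cd mouse 1 and Se mouse 40, 199 and 321. The highest adjusted p of any of the 103 genes in these 16 fits was 0.1156, against 0.04989 with all mice. Without Cd mouse 5, 72 were called, of which 60 belonged to the 103. Cd+Se mouse 15 and Se mouse 40 had the lowest median correlation with the libraries of their own groups (0.9561 and 0.9635). Without both and Cd mouse 5, which had the lowest median level, 311 were called and 93 of them belonged to the 103. At the threshold itself, G3bp2 (0.04933) and Gypc (0.04989) lay just inside and Plod3 (0.05023) and Tmcc3 (0.05029) just outside.

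**Figure D1:**
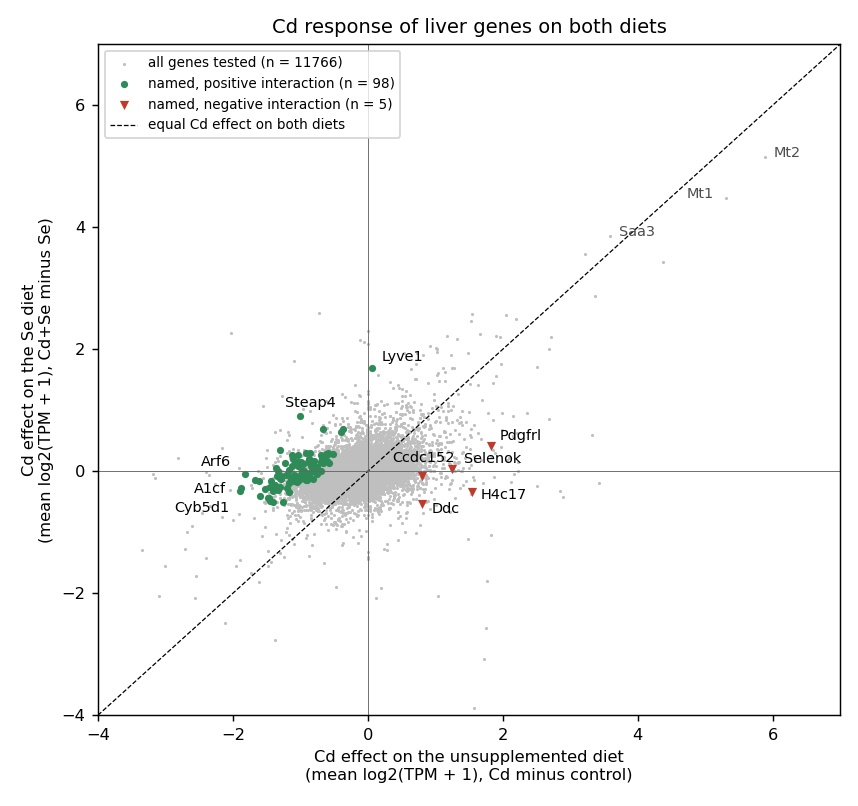
Cd effect of each gene on the unsupplemented diet (x axis, Cd minus control) and on the Se diet (y axis, Cd+Se minus Se), both as differences of mean log2(TPM + 1), for 11766 genes (grey), the 98 named genes with a positive interaction (green circles) and the 5 with a negative one (red triangles). Most green circles lie left of 0 on the x axis and near 0 on the y axis, while Mt1, Mt2 and Saa3 lie near the dashed line of equal effects.

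For the 98 positive genes the Cd effect on the unsupplemented diet ran from −1.90 to 0.06 on the log2 scale with a median of −1.01, and the Cd effect on the Se diet ran from −0.50 to 1.68 with a median of −0.03. In ratios of group means, the median gene stood at 0.451 of its control level in the Cd group and at 0.976 of its Se level in the Cd+Se group. Over all genes the medians of both effects were −0.17 and −0.03. In 84 of the 98 genes, all 4 Cd mice lay below all 12 other mice, an arrangement found in 10.7% of all genes tested. In 4 of the 5 negative genes, Ddc being the exception, all Cd mice lay above the other 12, as in 1.42% of all genes. Because the level of the Cd mice enters the contrast that chose the genes, both counts describe them and are no further test. Cd mouse 5 was the lowest of the 16 in 94 of the 98 genes. The share over all genes was not counted, and the library of this mouse also had the lowest median level of the 16. Control means of the 98 genes ran from 1.64 to 1345 TPM with a median of 14.1 TPM, and 4 genes, Apoa5, Cyp2d26, Fn1 and Lipc, stood at 100 TPM or more.

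The Cd+Se mice overlapped the control mice in most of these genes, but lay wholly outside the control range more often than over all genes. The 4 Cd+Se mice overlapped the control range in 77 of the 98 genes, lay wholly below it in 20 and wholly above it in Lyve1. Over all genes, 8.86% had Cd+Se mice wholly above or below the control mice. The difference between Cd+Se and control had a median of −0.21 on the log2 scale over the 98 genes. All 5 negative genes had Cd+Se mice that overlapped the control range.

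The interaction is also the Se effect in Cd-injected mice minus the Se effect without Cd. All 103 genes were called for the Se effect in Cd-injected mice, the positive genes as higher and the negative as lower (13.6% and 2.35% of all genes, 15.9% together), and 0 in mice without Cd, where limma called no gene and 454 genes had an unadjusted p under 0.05. Because the Se effect in Cd-injected mice is part of the contrast that chose the genes, its calls describe them and are no further test. In 96 of the 98 positive genes the Se effect in Cd-injected mice was the larger part. The exceptions were Tlr3 and Cyp2d26. For Tlr3 the Se effects were 0.41 with Cd and −0.63 without, and for Cyp2d26 they were 0.34 and −0.35, the values without Cd not called. The Se estimate without Cd was below 0 in 92 of the 98 genes, with a median of −0.19.

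**Figure D2:**
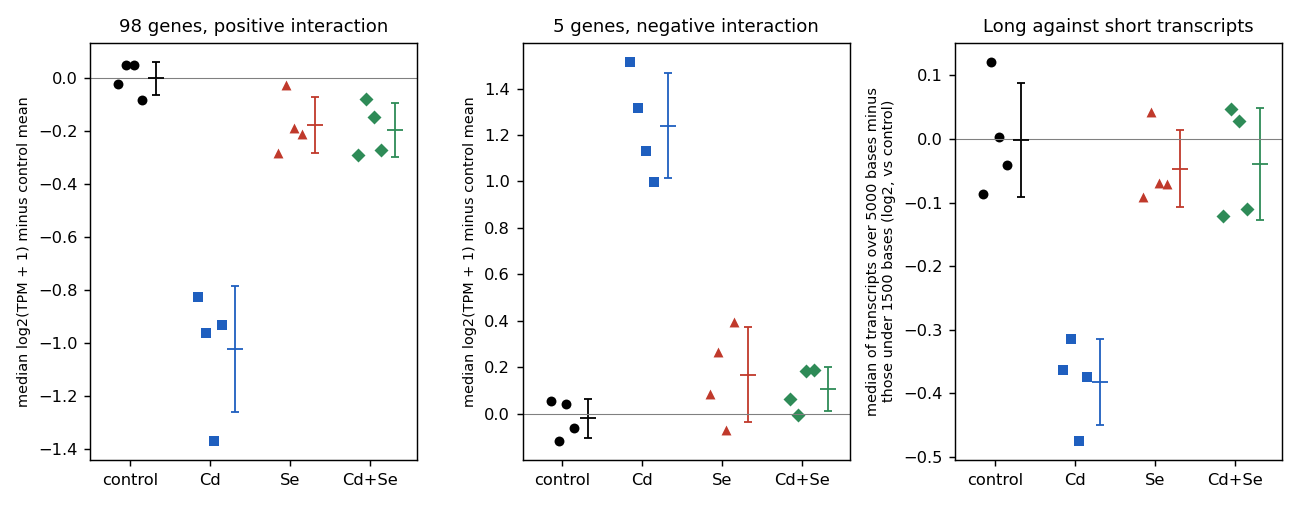
Median over the 98 positive genes (left) and the 5 negative genes (middle) of log2(TPM + 1) minus its control mean, and the median of genes with transcripts over 5000 bases minus that of genes under 1500 bases, on the same scale (right). Each point is 1 mouse and bars give mean ± SD (n = 4). The 4 Cd mice lie at −0.83 to −1.37 in the left panel, 0.999 to 1.52 in the middle panel and −0.31 to −0.48 in the right panel, apart from the other 12 mice in all 3. The genes of the left and middle panels were chosen by a contrast that includes the Cd mice.

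The genes with the most positive interactions belonged to varied functions. Steap4, an endosomal metalloreductase that reduces iron and copper and is induced in inflammation, had the largest (5:7960457-7982213 in GRCm38, ENSMUSG00000012428). Its level was 98.6, 63.7, 64.9 and 76.2 TPM in control mice 27, 28, 29 and 30, and 38.1, 38.6, 26.45 and 45.7 TPM in Cd mice 1, 2, 5 and 6. It was 48.1, 51.9, 53.8 and 45.15 TPM in Se mice 39, 40, 41 and 44, and 120.2, 68.35, 137 and 67.05 TPM in Cd+Se mice 13, 14, 15 and 16. Cd mice lay below all control mice on the unsupplemented diet, and Cd+Se mice lay above all Se mice. The interaction was 1.91 ± 0.32 (SE, limma adjusted p = 0.0176). The Cd effect was −1.01 on the unsupplemented diet (adjusted p = 0.00383) and 0.90 on the Se diet (adjusted p = 0.0923).

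A1cf, an RNA-binding protein that acts with the enzyme editing apolipoprotein B mRNA, stood at 47.0, 63.9, 50.8 and 42.4 TPM in control mice and 14.9, 17.8, 8.41 and 12.3 TPM in Cd mice (19:31868764-31948995). It stood at 39.5 to 51.3 TPM in Se mice and 34.5 to 44.95 TPM in Cd+Se mice. Only the Cd mice stood apart, and Se and Cd+Se mice overlapped. The interaction was 1.62 ± 0.26 (SE, limma adjusted p = 0.0176).

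Arf6, a small GTPase of endocytosis and membrane recycling, stood at 13.4 to 17.8 TPM in control and 1.64 to 5.88 TPM in Cd mice, then at 10.4 to 20.5 TPM in Se and 9.6 to 18.7 TPM in Cd+Se mice. C1qtnf1, a secreted protein related to adiponectin, stood at 2.49 to 4.47 TPM in control and 0.64 to 1.15 TPM in Cd mice, then at 1.6 to 3.33 TPM in Se and 2.53 to 4.09 TPM in Cd+Se mice. Cyb5d1, a protein with a cytochrome b5 domain, stood at 11.7 to 14.96 TPM in control and 1.83 to 4.06 TPM in Cd mice, then at 12.05 to 16.2 TPM in Se and 8.31 to 13.6 TPM in Cd+Se mice. In all 3 genes the Cd mice lay below every other mouse, with interactions of 1.79, 1.64 and 1.58.

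Metabolic enzymes and signalling proteins completed the largest interactions. Pdxk, which phosphorylates vitamin B6, stood at 0.287 of control in the Cd group and 0.91 of Se in the Cd+Se group, and Urad, an enzyme of uric acid breakdown, at 0.314 and 0.908. Gfra1, a co-receptor for glial cell line-derived neurotrophic factor, stood at 0.387 and 1.03 of the respective group without Cd. Itpr1, the inositol trisphosphate receptor that releases calcium from the endoplasmic reticulum, stood at 0.435 and 1.22. Their interactions were 1.52 ± 0.27, 1.46 ± 0.29, 1.41 ± 0.29 and 1.38 ± 0.24 (SE).

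Further genes of smaller change were among the 8 lowest p-values because their errors were small. Gpc4, a heparan sulfate proteoglycan of the cell surface, stood at 22.1 to 24.75 TPM in control, 12.2 to 17.85 TPM in Cd, 19.0 to 20.1 TPM in Se mice and 23.15 to 24.5 TPM in Cd+Se mice (X:52053021-52165252). Cd mice lay below all others, and Cd+Se mice lay above all Se mice and within the control range. Its interaction was 0.88 ± 0.15 (SE, limma adjusted p = 0.0176). Fam20b, a kinase that phosphorylates the xylose at the base of proteoglycan chains, had an interaction of 1.2 ± 0.20. Map4k5, a kinase of the stress-activated pathway, had 1.14 ± 0.19, and Tacc1, a coiled-coil protein of the centrosome, had 1.30 ± 0.22.

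**Figure D3:**
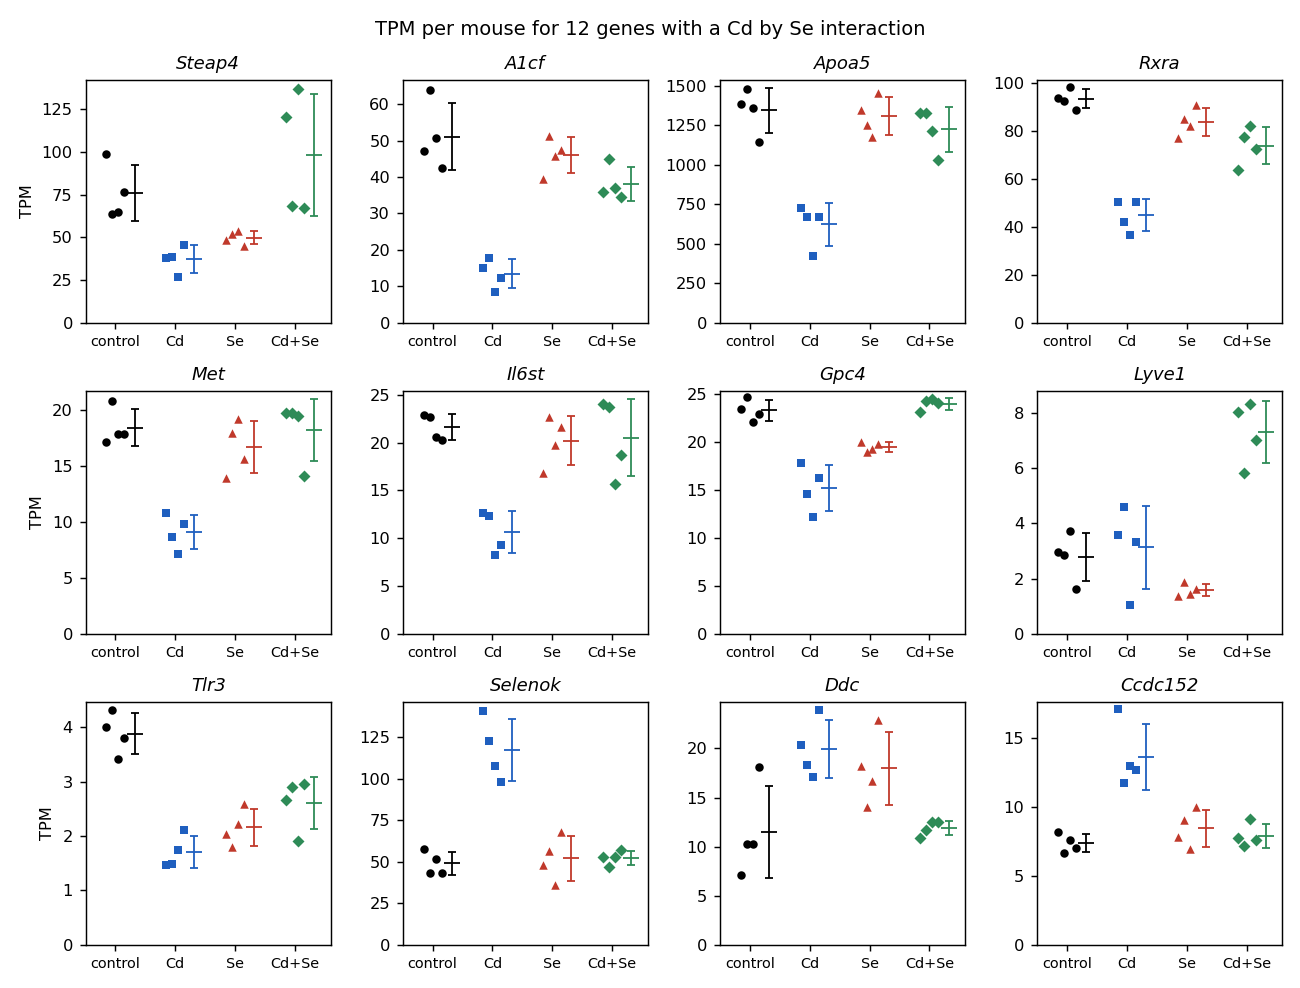
TPM in each mouse (points) with the group mean and SD (bars, n = 4) for 12 genes with an interaction, 9 positive (Steap4 to Tlr3) and 3 negative (Selenok, Ddc and Ccdc152), with each y axis starting at 0. Cd mice are lowest for A1cf, Apoa5, Rxra, Met, Il6st and Gpc4 and highest for Selenok and Ccdc152, while Lyve1 is highest in Cd+Se mice and Tlr3 is lower in Se than in control mice.

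Met, the receptor of hepatocyte growth factor, stood at 17.1, 20.9, 17.8 and 17.9 TPM in control mice and 10.8, 8.66, 7.16 and 9.78 TPM in Cd mice. It stood at 13.97, 18.0, 19.25 and 15.6 TPM in Se mice and 19.8, 19.7, 19.4 and 14.1 TPM in Cd+Se mice, so that Cd mice alone were low. The interaction was 1.07 ± 0.20 (SE, limma adjusted p = 0.0290). Gab1, a docking protein that Met phosphorylates, had an interaction of 0.70 ± 0.16, with 3.78 to 4.41 TPM in control and 1.96 to 2.81 TPM in Cd mice against 3.18 to 4.25 TPM in Se and 3.61 to 4.23 TPM in Cd+Se mice.

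Il6st, the gp130 subunit shared by receptors of the interleukin-6 family, stood at 20.3 to 22.9 TPM in control and 8.22 to 12.6 TPM in Cd mice, then at 16.8 to 22.7 TPM in Se and 15.6 to 24.1 TPM in Cd+Se mice. Its interaction was 0.99 ± 0.22 (SE, limma adjusted p = 0.0453). Ptpn1, a phosphatase that acts on the insulin receptor, had an interaction of 0.83 ± 0.19. Fgf1, a fibroblast growth factor, stood at 0.382 of control in the Cd group and 0.955 of Se in the Cd+Se group. The whole annotated span of Fgf1, 90800 bases, lies within Arhgap26 on the opposite strand. Whether counting used the strand is not given, so reads of that stretch cannot be assigned. Gab1, Ptpn1 and Fgf1 were singled out after their values were seen.

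Transcriptional regulators of the hepatocyte were represented by Rxra and Prox1. Rxra, the retinoid X receptor that pairs with many nuclear receptors, stood at 94.0, 92.6, 98.3 and 88.7 TPM in control mice and 50.35, 41.9, 36.6 and 50.4 TPM in Cd mice (2:27676440-27762957). It stood at 76.9 to 91.0 TPM in Se mice and 63.7 to 81.9 TPM in Cd+Se mice. Cd mice lay below all others, and Cd+Se mice, although higher, lay wholly below the control mice. The interaction was 0.87 ± 0.16 (SE, limma adjusted p = 0.0290). Prox1, a homeobox factor of hepatocytes and lymphatic endothelium, had 1.18 ± 0.27, with Cd mice at 7.21 to 12.7 TPM and the other 12 mice at 16.04 TPM or more. Zfp609 and Zfp65, zinc finger proteins, had 1.16 ± 0.22 and 0.95 ± 0.19.

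Apoa5, an apolipoprotein that lowers plasma triglyceride, was the most abundant of the 98 genes. It stood at 1386, 1484, 1361 and 1147 TPM in control mice and 725, 667, 423 and 671 TPM in Cd mice, and at 1175 to 1456 TPM in Se and 1029 to 1330 TPM in Cd+Se mice. The Cd mice were low, and the other 3 groups overlapped. Its interaction was 1.04 ± 0.22 (SE, limma adjusted p = 0.0411).

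Abca1, which loads cholesterol onto lipid-poor apolipoprotein, had an interaction of 0.99 ± 0.21. Lipc, the hepatic lipase, had 0.90 ± 0.18. In both the Cd mice lay below every other mouse. Abca1 and Lipc were singled out after their values were seen, and in the fixed lists only Apoa5 of 14 tested apolipoproteins and 0 of 25 genes of cholesterol synthesis and LDL uptake passed. Cyp2d26, a cytochrome P450, stood at 551 to 656 TPM in control, 340 to 422 TPM in Cd, 435 to 570 TPM in Se and 447 to 512 TPM in Cd+Se mice. Its Cd effect on the Se diet was 0.00 on the log2 scale, and it was not called after centring (limma adjusted p = 0.0821, range over the settings 0.0125 to 0.105).

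Tlr3, the endosomal receptor of double-stranded RNA, stood at 3.41 to 4.32 TPM in control, 1.47 to 2.11 TPM in Cd, 1.79 to 2.59 TPM in Se mice and 1.91 to 2.96 TPM in Cd+Se mice. All 12 treated mice lay below the control mice, and the Se group overlapped both Cd groups. Its interaction was 1.04 ± 0.19 (SE, limma adjusted p = 0.0218). Irgm2, an immunity-related GTPase induced by interferon gamma, had 1.21 ± 0.24 with all Cd mice below the other 12, but its annotated span holds Igtp, a related gene on the same strand, so reads of the pair may not be separable.

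Lyve1, the hyaluronan receptor of sinusoidal and lymphatic endothelium, stood at 2.98, 2.85, 3.72 and 1.62 TPM in control mice and 3.57, 4.59, 1.04 and 3.34 TPM in Cd mice. It stood at 1.38, 1.88, 1.43 and 1.61 TPM in Se mice and 8.05, 5.84, 8.32 and 7.04 TPM in Cd+Se mice. Every mouse given both treatments exceeded all 12 others, while control and Cd mice overlapped. The interaction was 1.62 ± 0.35 (SE, limma adjusted p = 0.0434), and it was not called with a pseudocount of 0.1. Of the 6 tested markers of sinusoidal endothelium Lyve1 alone was called, and the markers summed to 60.32 to 72.31 TPM in control, 37.86 to 56.21 in Cd, 43.75 to 69.91 in Se and 41.37 to 81.94 TPM in Cd+Se mice. The part of a shift in these cells in the Lyve1 result was not tested.

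Laptm5, a lysosomal membrane protein of blood cells, stood at 4.02 to 5.79 TPM in control and 2.77 to 4.09 TPM in Cd mice, and at 2.85 to 4.73 TPM in Se and 4.39 to 7.4 TPM in Cd+Se mice. Slc43a2, an amino acid transporter, stood at 1.59 to 1.75 TPM in control and 0.86 to 1.15 TPM in Cd mice, and at 0.86 to 1.16 TPM in Se and 1.25 to 3.04 TPM in Cd+Se mice. For both genes the Cd effects had opposite signs on the diets, −0.38 and 0.69 for Laptm5 and −0.39 and 0.64 for Slc43a2, without a call on either. Monocyte and macrophage markers, 6 in all with 4 tested, summed to 78.33 to 96.35 TPM in control, 65.72 to 102.4 in Cd, 74.93 to 86.01 in Se and 88.86 to 167.7 TPM in Cd+Se mice. Neutrophil markers, 7 in all with 3 tested, summed to 5.93 to 16.19, 32.09 to 41.34, 5.43 to 9.69 and 44.85 to 73.99 TPM in the same order. The part of these cells in the Laptm5 result was not tested. Fn1, fibronectin, made by hepatocytes for plasma, was called as lower on the unsupplemented diet and not called on the Se diet. It stood at 268 to 281 TPM in control, 149 to 220 TPM in Cd, 198 to 241 TPM in Se and 231 to 299 TPM in Cd+Se mice. Tlr3, Fn1, Laptm5 and Slc43a2 were singled out after their values were seen.

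The 5 negative genes included a selenoprotein. Selenok, a selenoprotein of the endoplasmic reticulum membrane, stood at 57.8, 43.4, 51.6 and 43.4 TPM in control mice and 141, 122.8, 108 and 98.3 TPM in Cd mice (14:29968308-29975662, ENSMUSG00000042682). It stood at 48.3, 56.8, 35.9 and 68.0 TPM in Se mice and 53.2, 46.8, 52.95 and 57.1 TPM in Cd+Se mice. Every Cd mouse exceeded every other mouse, and the other 3 groups overlapped. The Cd group stood at 2.39 times the control mean and the Cd+Se group at 1.005 times the Se mean. The interaction was −1.2 ± 0.24 (SE, limma adjusted p = 0.0343).

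Ccdc152, a coiled-coil protein, is annotated on the strand opposite to Selenop and shares 439 bases with it (15:3280070-3280508). It stood at 8.18, 6.7, 7.6 and 7.01 TPM in control mice and 17.1, 11.7, 12.96 and 12.7 TPM in Cd mice, then at 6.95 to 9.98 TPM in Se and 7.14 to 9.13 TPM in Cd+Se mice. The interaction was −0.88 ± 0.18 (SE, limma adjusted p = 0.0411). Selenop itself stood at 3490 to 3985 TPM in control and 1953 to 2952 TPM in Cd mice, and its interaction had the other sign, 0.47 (95% interval 0.08 to 0.86), without passing the test. Whether counting used the strand is not given in the sources used here, so reads of the shared stretch cannot be assigned.

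Ddc, the decarboxylase that makes dopamine and serotonin, stood at 7.15, 10.3, 10.3 and 18.1 TPM in control mice and 20.3, 18.3, 17.1 and 23.9 TPM in Cd mice. It stood at 18.2, 14.1, 16.7 and 22.9 TPM in Se mice and 10.9, 11.7, 12.5 and 12.5 TPM in Cd+Se mice. Cd and Se mice overlapped in the upper range and control and Cd+Se mice in the lower, apart from control mouse 30. The interaction was −1.34 ± 0.29 (SE, limma adjusted p = 0.0416), with Cd effects of 0.81 and −0.54, the latter not called.

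Pdgfrl, a protein related to the PDGF receptor, stood at 0.27 to 0.59 TPM in control and 2.88 to 5.11 TPM in Cd mice. It stood at 0.26 to 0.53 TPM in Se mice, and at 0.52, 0.43, 2.22 and 0.82 TPM in Cd+Se mice. H4c17, a histone H4 gene, stood at 0 to 1.06 TPM in control and 1.83 to 4.56 TPM in Cd mice, then at 0 to 1.71 TPM in Se and 0 to 0.47 TPM in Cd+Se mice. In both genes the Cd mice exceeded all others. These 2 genes passed the filter on mean TPM through the Cd group, and H4 genes have near-identical copies, which makes H4c17 uncertain. Both were not called with a pseudocount of 0.1.

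Among other selenium and metal genes the interaction was not called, and the intervals show how large it could be. Of 19 tested selenoproteins, Selenok alone passed, and the median interaction over the list was −0.10 against 0.16 over all genes. Gpx4, the glutathione peroxidase that reduces lipid hydroperoxides in membranes, stood at 217 to 278 TPM in control, 312 to 377 TPM in Cd, 245 to 452 TPM in Se and 280 to 356 TPM in Cd+Se mice. Its interaction was −0.53 (95% interval −1.01 to −0.06, limma adjusted p = 0.193), and −0.72 after centring (adjusted p = 0.0280). Over the settings its adjusted p ran from 0.0280 to 0.339. Gpx1 and Selenow, further selenoproteins of antioxidant function, had −0.21 and −0.17.

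Metallothioneins rose after Cd on both diets. Mt1 stood at 50.9 to 221 TPM in control and 3178 to 4899 TPM in Cd mice, and at 64.3 to 431 TPM in Se and 3621 to 6070 TPM in Cd+Se mice. Its interaction was −0.82 with an interval of −2.26 to 0.62, and that of Mt2 was −0.74 with an interval of −2.71 to 1.23, so that equal responses and differences of several-fold were both within the error. Hmox1, heme oxygenase, rose on both diets as well, by 0.81 and 1.91 on the log2 scale, and its interaction was 1.10 (95% interval 0.36 to 1.84, limma adjusted p = 0.106). It was called only without Se mouse 40 (limma adjusted p = 0.0423), with a range of 0.0423 to 0.216 over the settings.

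Genes of cystine uptake and iron handling had no called interaction in limma. Slc3a2, the heavy chain of the cystine transporter, had 0.32, Slc40a1, the iron exporter ferroportin, 0.46, Fth1, the ferritin heavy chain, −0.02, and Gclc, of glutathione synthesis, −0.36. Slc7a11, the light chain of the cystine transporter, was under the filter, at 0 to 0.07 TPM in control, 0.08 to 0.21 in Cd, 0.03 to 0.08 in Se and 0.27 to 1.06 TPM in Cd+Se mice. Its interaction was 0.42. An exact two-sided permutation test of diet labels, within the mice with Cd and within those without, gave p = 0.0171 (4900 arrangements, smallest possible p = 0.000408). The null of this test is no effect of diet in either set of mice, so a low p need not mean an interaction. After centring the interaction was 0.23 (exact permutation p = 0.285). Without any one of the Cd mice the exact permutation p rose to between 0.0567 and 0.0669.

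For 42 genes, 0.357% of all tested, a Cd effect was called on both diets, always in the same direction. For the interaction, limma called 0 of these 42 genes, near the share of all genes (1.04%). They included Mt1 and Mt2, and the alarmins S100a8 and S100a9, with interactions of 1.03 and 0.93. The Kupffer cell markers Clec4f, Vsig4 and Timd4 were also among them, with −0.03, 0.41 and 0.44. The 6 Kupffer markers summed to 104.7 to 128.8 TPM in control and 35.02 to 54.44 TPM in Cd mice. They summed to 57.85 to 141.8 TPM in Se and 32.09 to 65.62 TPM in Cd+Se mice. Of the 6, 0 were called for the interaction, again near the share of all genes. Across all genes, the Cd effects on both diets, which share no mouse, had a Pearson r of 0.438, as a description of genes that share libraries. The median absolute Cd effect was 0.309 on the unsupplemented diet and 0.139 on the Se diet.

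Of 46 gene lists, 9 held a gene called for the interaction (1.04% of all genes), and no list held more than 2. Over all genes, Cd was called for 24.9% as lower and 5.82% as higher on the unsupplemented diet and for 0.714% on the Se diet, so that a count of 0 in a list on the Se diet is near that share. The adherens junction list had the largest median interaction, 0.58, with 32 of 33 genes above 0 against 65.9% of all genes, and 2 passed, Met among them. On the unsupplemented diet 19 of the 33 fell, against 24.9% of all genes, and the list's median Cd effect was −0.51. On the Se diet the median was 0.00 and 0 were called, against 0.714% of all genes. The growth hormone and IGF axis (0.54, 10 of 12 above 0), complement and coagulation (0.43, 34 of 36), fatty acid oxidation (0.42, 20 of 27) and the lysosome (0.37, 19 of 21) also had medians above that of all genes, with 0 genes called in each. These medians stayed above 0 with quantile normalization, with centring and with a length and GC correction. The length and GC correction lowered them to 0.27, 0.30, 0.31, 0.23 and 0.23, from adherens junction to lysosome in the order given. Over all genes the median was then 0.01.

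Other lists had medians below 0 without a called gene. Glutathione S-transferases had −0.43, with 3 of 20 genes above 0, genes of cholesterol synthesis and LDL uptake −0.36 (5 of 25), targets of NRF2, the factor of the antioxidant response, −0.36 (4 of 27), and complex I of the respiratory chain −0.32 (2 of 38). For complex I, 15 genes rose and 2 fell after Cd on the unsupplemented diet, against 5.82% and 24.9% of all genes, and 0 were called on the Se diet, near the share of all genes (0.714%). Cytosolic ribosomal proteins had −0.21, with 26 of 79 rising on the unsupplemented diet (5.82% of all genes) and 0 called on the Se diet (0.714%). All 5 medians stayed below 0 under the same 3 corrections.

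The shares of called genes in the other lists rest on 1 or 2 genes each and stand beside 1.04% of all genes. Steap4 was 1 of 23 acute phase genes (4.35%), Il6st 1 of 16 genes of the STAT3 and NF-kB response (6.25%) and Irgm2 1 of 23 interferon-stimulated genes (4.35%). Rxra and Prox1 were 2 of 24 hepatocyte transcription factors (8.33%) and Cyp2d26 1 of 31 cytochromes P450 (3.23%). Of 252 Zfp genes, 2 were called, Zfp609 and Zfp65 (0.794%). The ferroptosis list had 0 of 33 called and a median of 0.12, which was 0.05 after quantile normalization and −0.06 after centring. The acute phase list had a median Cd effect of 0.02 on the unsupplemented diet and 0.87 on the Se diet, and a median interaction of 0.38. By calls it had 7 of 23 genes rising and 3 falling on the unsupplemented diet (5.82% and 24.9% of all genes) and 1 rising on the Se diet (0.544%).

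**Figure D4:**
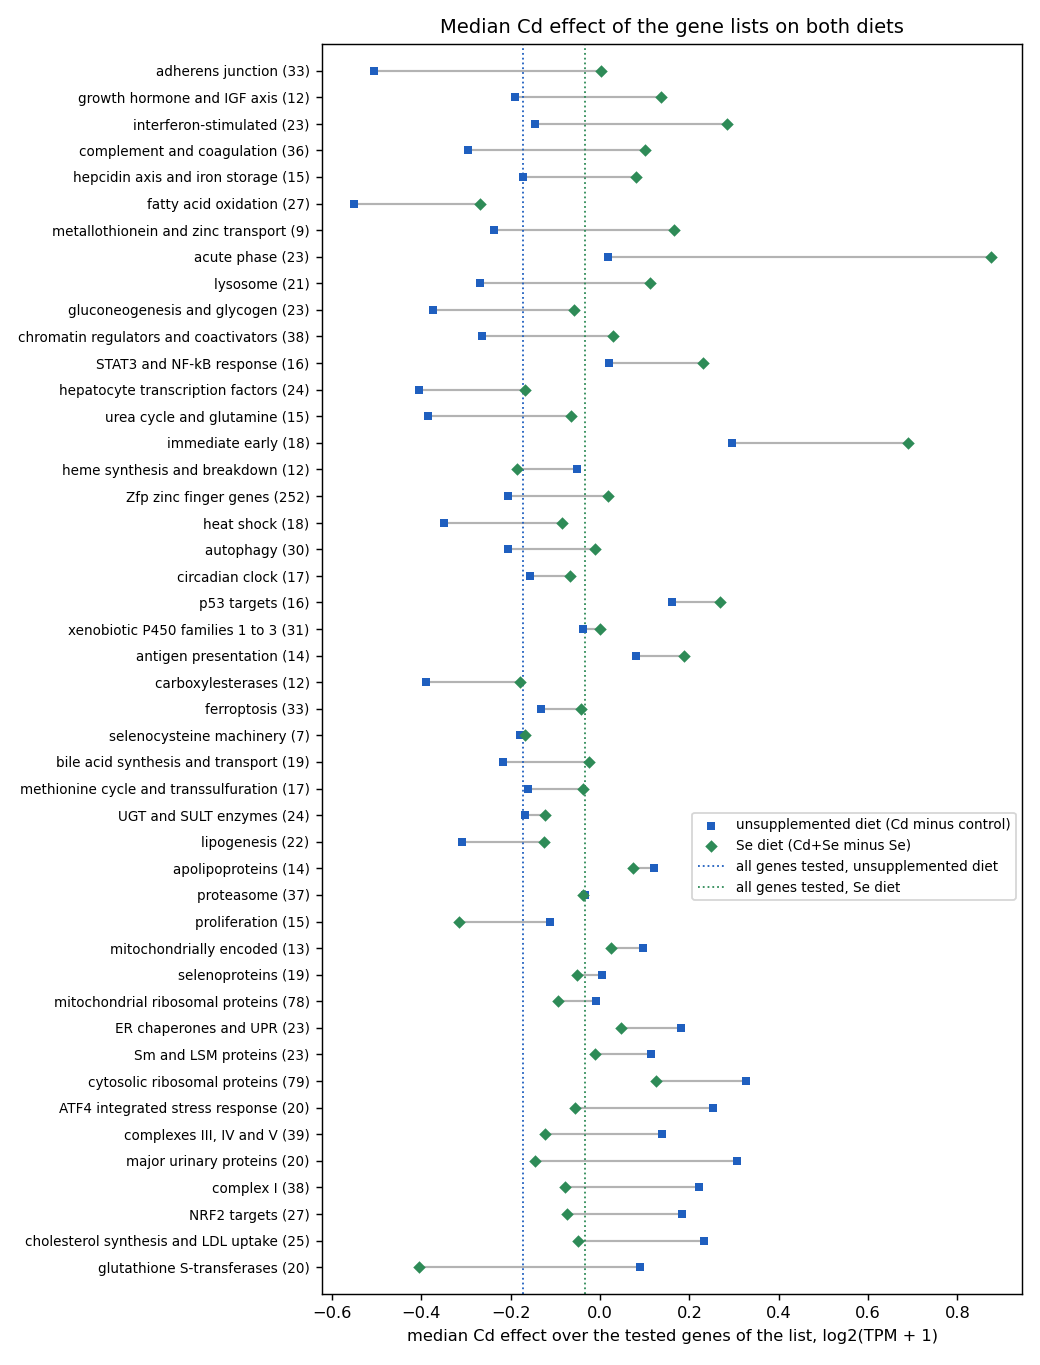
Median Cd effect, in log2(TPM + 1), over the tested genes of each of 46 lists (number of genes in brackets) on the unsupplemented diet (blue squares) and on the Se diet (green diamonds), sorted by median interaction, with dotted lines at the medians of all 11766 genes. From adherens junction down to lists such as lysosome the diamonds lie right of the squares, and at the bottom, from cytosolic ribosomal proteins to glutathione S-transferases, they lie left.

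Transcript length moved with the interaction. The 98 positive genes had a median length of the longest annotated transcript of 4552 bases, against 3085 over 11561 tested genes with a length. With genes split by length into 5 equal groups, from short to long, the median interaction of all genes was −0.07, 0.12, 0.18, 0.25 and 0.305, and 12, 12, 13, 30 and 39 genes were called positive (0.518%, 0.519%, 0.562%, 1.3% and 1.69%). Negative calls were 8, 6, 1, 1 and 0. Within libraries, genes with transcripts over 5000 bases stood lower relative to those under 1500 bases in all 4 Cd mice, by −0.31 to −0.48 on the log2 scale relative to control, than in the other 12 mice, at −0.12 to 0.12. After a correction of each library for length and GC content, 91 of the 103 genes were called, with the same sign for all 103, and among the genes named here Prox1, Abca1, Gab1, Tlr3, Fn1 and Slc43a2 were not.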

How the data were processed

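Liver RNA of 16 mice was measured by poly(A)-selected RNA-seq. The deposited table, 57010 genes by 16 libraries, holds TPM, which the authors calculated after read processing whose notes name fastp, HISAT2 and StringTie, without versions. Those notes name the build GRCh38, a human build, although all 57010 identifiers are mouse genes, and the table names none. Coordinates, transcript lengths and gene overlaps were taken by gene identifier from GENCODE M21 (GRCm38).

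Groups were taken from the labels, 4 mice in each. Values were put on log2(TPM + 1), which understates changes of low genes. A minimum mean of 1 TPM left 11766 genes for testing. limma 3.58.1 in R 4.3.3, with intensity trend and a mean for each group, gave the interaction, both Cd effects and both Se effects, with Benjamini-Hochberg adjustment over all genes tested and a threshold of 0.05. The model was tested on simulated data. Slc7a11, below the filter, was tested by an exact permutation of diet labels, whose null is no diet effect in mice with or without Cd. Gene lists are described by counts and medians without a test.

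Genes were named by rule: up to 10 with the most positive and the most negative interactions, the 8 lowest p-values, up to 3 called members of each of 46 lists, and 12 metal, selenium and ferroptosis genes whatever their values. Names added after values were seen are marked as such, and a called gene that the rule gives is not reported here. The members and the lists were chosen with earlier results of these data known. Of the 37 called genes named, 18 overlap a gene annotated on the opposite strand, and whether reads were assigned by strand is not given in the sources used here. Alternatives covered the pseudocount, filter, scaling, trend, weights, gene set, length and GC, fold minimum and omitted mice. Omission of Cd mouse 5, Cd+Se mouse 15 and Se mouse 40 was chosen after the data were seen.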

Additional observations from a re-analysis of the deposited data

Results flagged for a closer look

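The Cd effect differed between the diets in 122 genes by the limma interaction test. Among the genes named in the report, the positive interactions on the log2 scale were 1.91 for Steap4, 1.79 for Arf6, 1.64 for C1qtnf1, 1.62 for Lyve1 and for A1cf, 1.58 for Cyb5d1, 1.52 for Pdxk, 1.46 for Urad, 1.41 for Gfra1 and 1.38 for Itpr1. Those between 1 and 1.3 were 1.3 for Tacc1, 1.26 for Fgf1, 1.21 for Irgm2, 1.2 for Fam20b, 1.18 for Prox1, 1.16 for Zfp609, 1.14 for Map4k5, 1.07 for Met and for Laptm5, and 1.04 for Apoa5, Tlr3 and Slc43a2. Those under 1 were 0.987 for Il6st and for Abca1, 0.952 for Zfp65, 0.897 for Lipc, 0.878 for Gpc4, 0.872 for Rxra, 0.825 for Ptpn1, 0.804 for Fn1, 0.7 for Gab1 and 0.689 for Cyp2d26. The negative ones were −1.87 for H4c17, −1.4 for Pdgfrl, −1.34 for Ddc, −1.2 for Selenok and −0.877 for Ccdc152.

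Dixon's ratio, the gap of the extreme mouse to its nearest neighbour over the range of its group, singled out 12 of 216 groups of 4, where chance gives about 10.8. In control mice it was 0.891 for Urad (mouse 27 at 37.23 TPM, the others 28.48 to 29.43), 0.836 for Abca1 (mouse 28 at 34.33, the others 27.19 to 28.36), 0.894 for Fn1 (mouse 29 at 268.48, the others 279.42 to 280.72), 0.855 for Selenow (mouse 28 at 64.49, the others 77.09 to 79.23) and 1 for Slc7a11 (mouse 30 at 0 TPM, the others 0.07). In Cd+Se mice it was 0.957 for H4c17 (mouse 16 at 0 TPM, the others 0.45 to 0.47), 0.944 for Met (mouse 16 at 14.07, the others 19.44 to 19.76), 0.873 for Gpx4 (mouse 16 at 355.91, the others 280.44 to 289.99) and 0.948 for Fgf1 (mouse 15 at 56.94, the others 33.97 to 35.17). In Se mice it was 0.848 for Tacc1 (mouse 39 at 10.87 TPM, the others 8.43 to 8.8). For whole libraries it was 0.839 for the share of TPM on the 10 highest genes in control mice (mouse 27 at 29.64%) and 0.833 for long against short transcripts in Se mice (mouse 40 at 0.04 on the log2 scale).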

How the results depend on the processing

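Of the 37 called genes named, 0 reversed direction in 1025 comparisons with alternative settings, 665 kept the call and 360 lost it, 296 of them with 1 mouse left out. Their adjusted p ran from 0.00208 to 0.121. As these genes were chosen for large estimates in the same libraries, the kept direction follows in part from that choice. Depth is unknown for TPM. The cause of the changes below was not tested.

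Leaving out 1 mouse moved the interaction calls from 122 to between 2 and 348. Positive calls moved to between 1 and 321 and negative calls to between 1 and 27. The named genes moved from 103 to between 0 and 321. Named genes called as lower on the unsupplemented diet and not called on the Se diet moved from 95 to between 0 and 289. A missing call on the Se diet does not show that a gene did not fall there. The Cd calls ranged from 2588 to 3886 on the unsupplemented diet (3619 with all mice) and from 28 to 193 on the Se diet (84), the Se calls in Cd-injected mice from 712 to 2164 (1876) and those without Cd from 0 to 2. The interaction of Slc7a11 ranged from 0.28 to 0.51, and centring weakened it to 0.23.

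The order below is interaction calls, positive, negative, named, and named called lower on the unsupplemented diet but not called on the Se diet. Quantile normalization gave 524, 328, 196, 478 and 300, and centring 731, 315, 416, 661 and 285. Array weights gave 982, 819, 163, 907 and 734, and the length and GC correction 397, 218, 179, 361 and 191. Without Cd mouse 5, Cd+Se mouse 15 and Se mouse 40 the counts were 333, 304, 29, 311 and 247. Without a filter on low values they were 26, 20, 6, 19 and 17, and on the square root of TPM 55, 47, 8, 43 and 40. A minimum absolute effect of 1 on the log2 scale gave 71 calls, 59 positive, 55 named and 39 in the last class. With protein-coding genes only, 160 were positive, 172 named and 151 in the last class. Negative calls were 10 with a pseudocount of 0.1 and 9 with a mean of at least 5 TPM.

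Cd calls on the Se diet were 31 with a mean of at least 5 TPM, 54 on the square root of TPM, 128 with the length and GC correction and 268 without the 3 mice. Se calls in Cd-injected mice were 1131 without a filter, 855 without the 3 mice and 110 with the minimum effect, and Cd calls on the unsupplemented diet were then 376.

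Among genes not called, reversals occurred for Mt1 (0.77) and Mt2 (1.32) on the square root of TPM and for Fth1, at 0.0549 after quantile normalization, while leaving out 1 mouse moved Fth1 to between −0.109 and 0.0918, above 0 for 6 mice. No paired analysis was possible because the mouse numbers of the 4 groups share no value.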

Other observations

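The Cd effects of further gene lists on each diet are given here as counts and medians, and their difference between diets was not tested over the lists. Over all genes tested, 24.9% fell and 5.82% rose on the unsupplemented diet and 0.714% were called on the Se diet, so that 0 calls in a list on the Se diet is near that share. Genes of the ATF4 integrated stress response had a median Cd effect of 0.25 on the log2 scale on the unsupplemented diet, with 4 of 20 rising and 1 falling, and of −0.06 on the Se diet, with 0 called. Chaperones of the endoplasmic reticulum and the unfolded protein response had medians of 0.18 and 0.05, with 3 rising and 3 falling of 23 on the unsupplemented diet and 0 called on the Se diet. Chromatin regulators and coactivators had medians of −0.26 and 0.03, with 14 of 38 falling on the unsupplemented diet and 0 called on the Se diet. The median interaction of that list, 0.32, was 0.01 after the length and GC correction. Hepatocyte transcription factors had medians of −0.40 and −0.17, with 12 of 24 falling and 1 rising on the unsupplemented diet and 0 called on the Se diet. Over all genes tested the medians were −0.17 and −0.03. Median interactions of lipogenesis, the selenocysteine machinery, the methionine cycle and apolipoproteins, between −0.04 and 0.11, changed sign under at least 1 of the scalings or the length and GC correction.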
